A study of Homo sapiens with 5 samples.

Results

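The ZBTB7A peaks described here are those around 6 genes for transcription factors of the prostate epithelial lineage: FOXA1, GATA2, SOX9, GRHL2, ONECUT2 and KLF5. A peak was taken as a member when its summit lay within 100 kb of the gene's span on the hg19 build, and 150 of the 196770 deposited peaks met this rule. ZBTB7A, a zinc finger protein with a BTB domain, had been mapped by ChIP-seq in VCaP, a single established prostate cancer cell line that responds to androgen and carries the TMPRSS2-ERG fusion. Hormone-depleted serum at 5% was combined with a 4-hour treatment, either vehicle (the CSS group, with 2 libraries) or the androgen DHT at 10 nM (the DHT group, also with 2). The remaining group, FBS, had 1 library from cells in 10% full serum. Every library carries one and the same treatment text, so the absence of added DHT in FBS is a reading of how those cells were cultured. With 1 peak list per condition the replicate spread is unknown and p-values are left out. All intervals are exact 95% intervals for counting error, and the read depth behind each list is unknown. The lists are of unequal length, 37782 peaks in CSS, 34120 in DHT and 124868 in FBS, so counts were compared as shares of each list. Peak strength is the authors' own fold enrichment over background and −log10 of the q-value, both of which depend on depth. They serve mainly to describe peaks within 1 list. Where lists are compared at a fixed limit of either value, the result depends on depth as well. A peak at the highest 20.4% of its list, for example, has a rank by −log10 q equal to 20.4% of the list's length. Tied peaks all take the best rank of their group, so a larger share of the list can equal or exceed a tied peak. Low percentages mark strong peaks.

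The 6 factors work in prostate epithelium together with the androgen receptor or beside it. FOXA1 is a pioneer factor that opens chromatin for the receptor, and GATA2 is a zinc finger factor that acts at receptor enhancers and on the receptor gene itself. GRHL2 maintains epithelial junction genes, KLF5 acts in basal and luminal progenitors, SOX9 directs budding of the developing prostate, and ONECUT2 is a homeodomain factor known from androgen-indifferent disease. The windows are defined by distance alone and assign no peak to a gene. ZBTB7A is known mostly as a repressor that recruits corepressor complexes, with the fetal globin genes as the best described targets.

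Within the 6 windows 22 peaks were called in CSS (13.8 to 33.3), 23 in DHT (14.6 to 34.5) and, in the full-serum list, 105 (85.9 to 127). These are 0.0582%, 0.0674% and 0.0841% of the lists. The ratio of the DHT share to the CSS share was 1.16 (0.617 to 2.18) and that of the FBS share to the CSS share was 1.44 (0.906 to 2.40). Both intervals include 1. GRHL2 alone supplied 56 of the 105 FBS peaks, and without its window the FBS to CSS ratio was 0.927 (0.518 to 1.75). The genes differed from each other more than the pooled counts did: SOX9 had FBS peaks only, GRHL2 was the richest in FBS, and KLF5 had more peaks in CSS and in DHT than in the far longer FBS list.

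**Figure D1:**
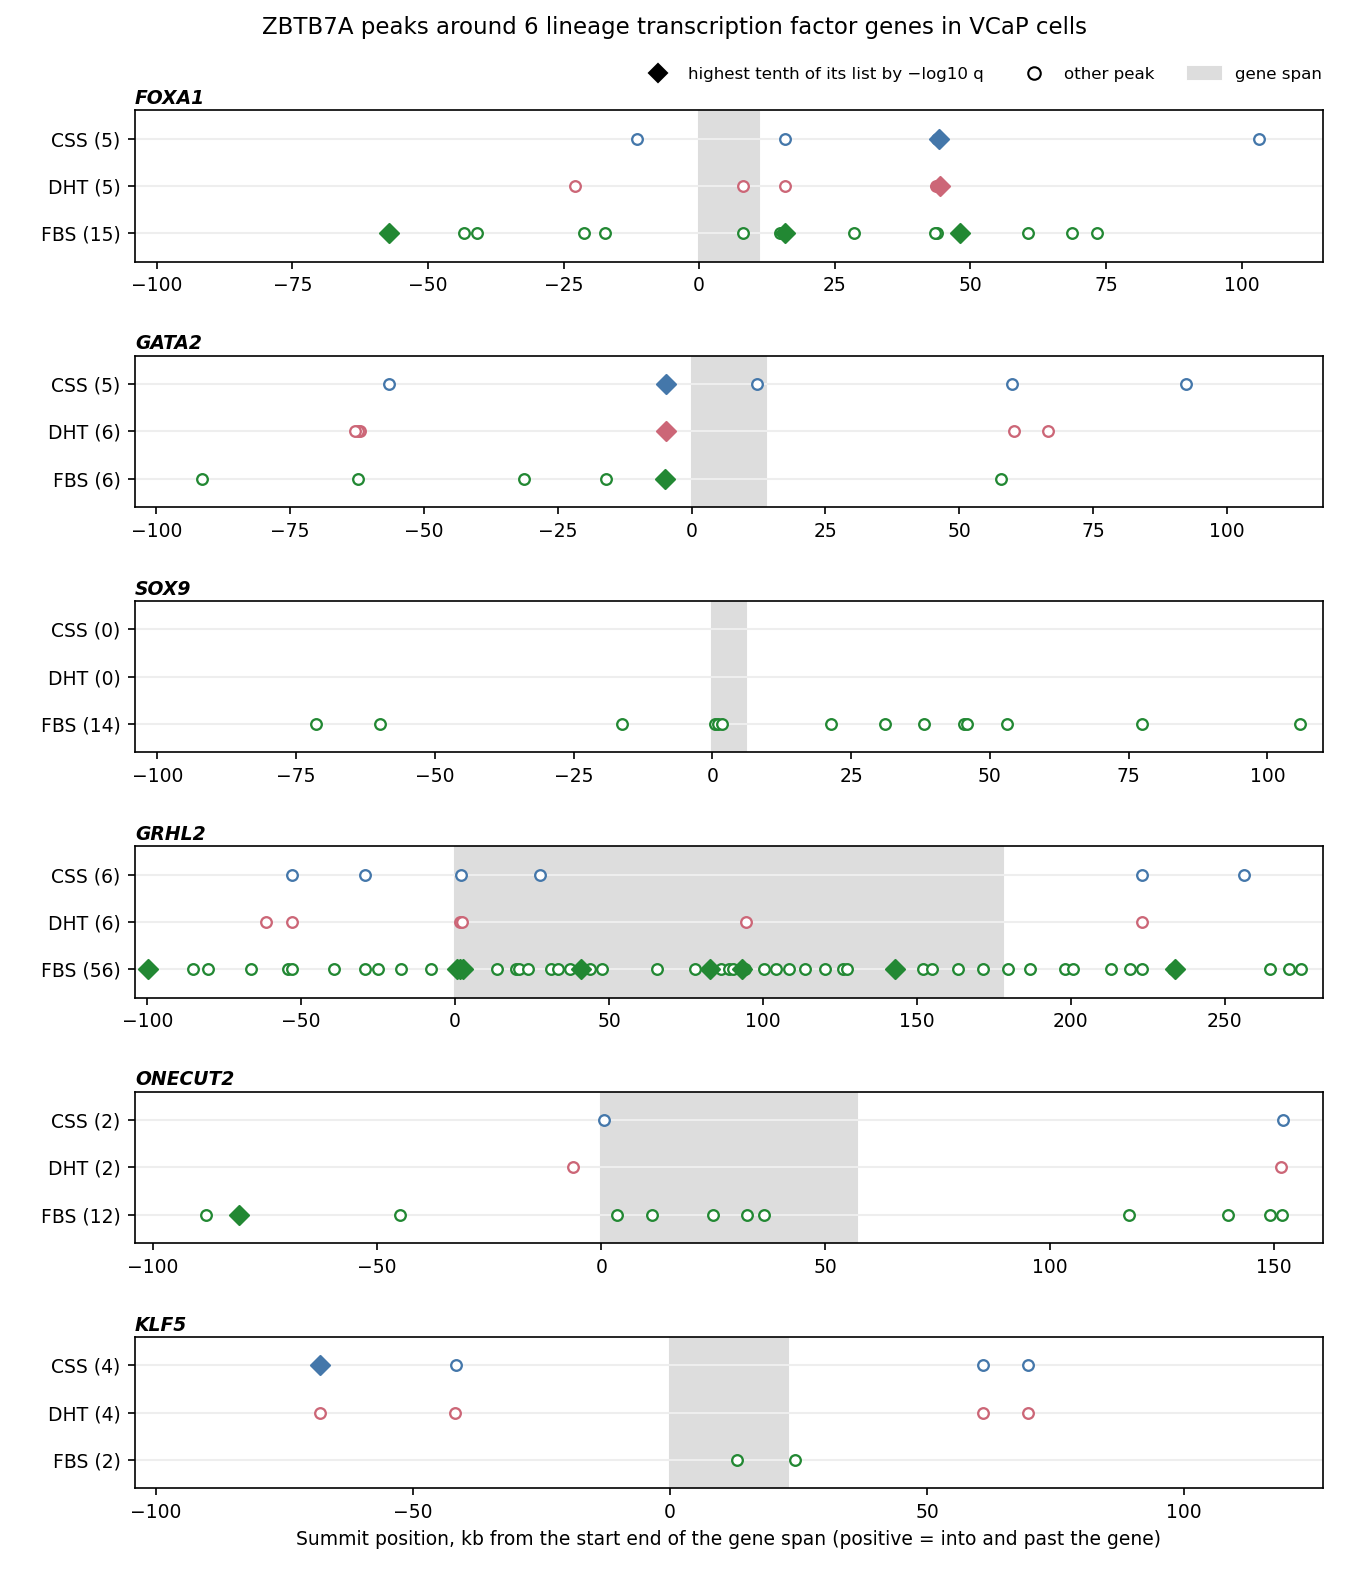
ZBTB7A peak summits in the 6 gene windows, by distance in kb from the start end of each gene span (grey), with a lane for each condition and the number of peaks in parentheses. Diamonds are peaks in the highest 10% of their list by −log10 q and open circles are all others; the SOX9 lanes for CSS and DHT are empty, and GRHL2 has 56 FBS peaks spread over the gene and both flanks.

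To show what a stretch of this size usually holds, chromosomes 1 to 22 and X were cut into tiles as wide as each gene's window, stretches without assembled sequence included. A tile of the FOXA1 width (211 kb) held a median of 2 CSS peaks (quartiles 1 and 4), 2 DHT peaks (1 and 3) and 7 FBS peaks (3 and 13). FOXA1 had 5, 5 and 15, each above the upper quartile. GATA2 had 5 CSS and 6 DHT peaks, above the upper quartiles of 4 and 3, and 6 FBS peaks against a median of 8. GRHL2 had 6 CSS and 6 DHT peaks, at the upper quartile of its wider tiles, and 56 FBS peaks against a median of 14 and an upper quartile of 23. ONECUT2 had 2 CSS, 2 DHT and 12 FBS peaks, all within the quartiles. KLF5 had 4 CSS and 4 DHT peaks, at the upper quartile, and 2 FBS peaks, under the lower quartile of 3. SOX9 had 0 CSS and 0 DHT peaks, under the lower quartile of 1 in both lists. Its 14 FBS peaks were just above the upper quartile of 13, with a median of 7.

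**Figure D2:**
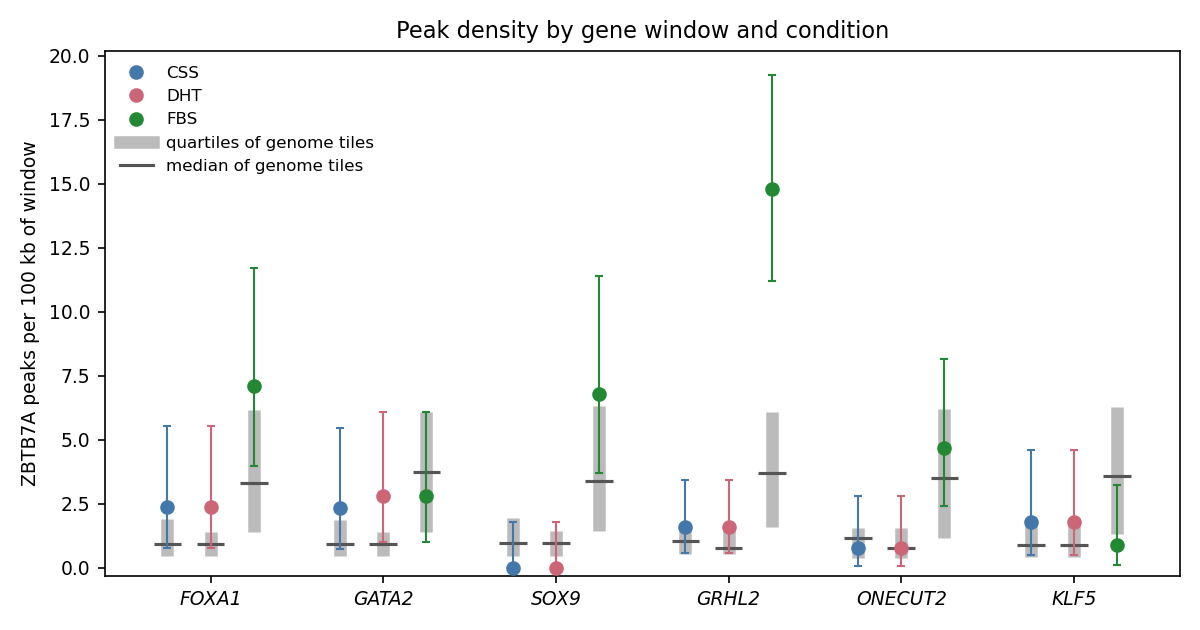
Peaks per 100 kb of each gene window in the 3 lists (points, with exact Poisson 95% intervals) beside the median and quartiles of genome tiles of the same width (grey). GRHL2 stands at 14.8 FBS peaks per 100 kb, followed by FOXA1 at 7.11 and SOX9 at 6.80, while KLF5 is at 0.897.

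After peaks of all lists that overlapped by at least 1 bp were merged, the windows held 123 separate regions, of which 17 had peaks in more than 1 list. A peak in all 3 lists was present at 7 regions: 3 at GRHL2, 2 at FOXA1, 1 at GATA2 and 1 at ONECUT2. This is 5.69% of the regions, against 7.67% of merged regions over the genome. A further 6 regions were in CSS and DHT but not FBS, where the genome-wide share is 5.97%, and 4 of these 6 were at KLF5. Only 1 region was in CSS and FBS without DHT (2.69% genome-wide) and 3 were in DHT and FBS without CSS (2.61%). CSS alone had 8 regions (7.57%), DHT alone 6 (5.10%) and FBS alone 92 (68.4%). FBS alone thus made up 74.8% of the window regions, and 50 of its 92 were at GRHL2.

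Peak by peak, the overlap between lists was near that of the whole lists. Of the CSS window peaks, 13 of 22 (59.1%, 36.4 to 79.3%) overlapped a DHT peak, where 56.8% of all CSS peaks do. Of the DHT window peaks, 14 of 23 (60.9%, 38.5 to 80.3%) overlapped a CSS peak, against 63.9%. An FBS partner was found for 8 CSS peaks (36.4%, 17.2 to 59.3%) and 11 DHT peaks (47.8%, 26.8 to 69.4%), with backgrounds of 44.1% and 48.2%. In the other direction 13 of the 105 FBS peaks (12.4%, 6.76 to 20.2%) had a CSS or DHT partner, and the background is 17.2%. All 5 intervals include the background.

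The share of window peaks among the strongest of their lists was near that of all peaks. By −log10 q, the highest 10% of its list held 3 CSS peaks (13.6%, 2.91 to 34.9%, background 10.0%), 2 DHT peaks (8.70%, 1.07 to 28.0%, background 10.2% with ties) and 14 FBS peaks (13.3%, 7.49 to 21.4%, background 10.0%). A −log10 q of at least 10 was reached by the same number of CSS and DHT peaks, 3 and 2, and by 7 FBS peaks (6.67%). Over the whole lists 14.5%, 11.8% and 4.92% reach it. The strongest window peaks of CSS and DHT were at FOXA1, GATA2 and KLF5, and those of FBS at FOXA1, GRHL2 and GATA2.

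FOXA1, on the minus strand of chromosome 14 (38.058 to 38.069 Mb), carried its main ZBTB7A sites past its 3′ end, on the side of the neighbouring gene MIPOL1. The strongest CSS peak of all 6 windows lay here, from 38024358 to 38024978, 33.3 kb beyond the span, with a fold enrichment of 9.29 and rank 1228 of the CSS list. Its DHT partner from 38024347 to 38024915 ranked 2226 in DHT, at a fold enrichment of 8.31. FBS had no peak overlapping this pair, but a separate FBS peak from 38020729 to 38021057 stood nearby at rank 3420 with a fold enrichment of 8.10. Next to the pair, at 38025079 to 38025747, a second region was called in every list, at the highest 16.96% of CSS, 91.4% of DHT and 32.6% of the FBS list. FOXA1 thus had adjoining regions that differed in which lists called them, as separated by the overlap rule of 1 bp. An FBS peak of the second region started at 38025090, close to the end of the pair at 38024978.

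The other main FOXA1 site was 4.84 kb beyond the 3′ end. It was the highest-ranked FBS peak of the windows, from 38052561 to 38053434, with rank 1020, a fold enrichment of 7.08 and, at 874 bp, the greatest width of all window peaks. The CSS summit was 5 bp and the DHT summit 19 bp from the FBS summit, and these peaks were at the highest 14.8% and 29.0% of their lists. Within the gene itself CSS had no peak, while DHT and FBS each had a weak one with summits 22 bp apart (fold enrichment 4.61 and 3.17, at the highest 77.6% and 81.3% of the lists). Upstream, towards TTC6, CSS and DHT had 1 peak each and neither had a partner: CSS at 11.4 kb (fold enrichment 6.37) and DHT at 22.98 kb (4.56). At the 3 FOXA1 regions called in both CSS and DHT, the CSS peak held the higher rank each time. FBS had 5 upstream peaks, and the one farthest from the gene, 57.2 kb away, was within the highest 7.28% of its list. The share of the FBS list at FOXA1 was 0.908 times that of CSS (0.314 to 3.19), and for the rest of chromosome 14 this ratio was 0.977.

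GATA2, on the minus strand of chromosome 3 (128.198 to 128.212 Mb), had the site that was strong in every condition. It lies upstream of the start end of the span, at 4.77 kb in CSS, 4.84 kb in DHT and 4.90 kb in FBS. In CSS it spanned 128216636 to 128217014, at rank 2678 and 9.16-fold enrichment. The DHT peak from 128216659 to 128216952 had 9.85 and rank 1087, the highest-ranked DHT peak of the 6 windows. The FBS peak from 128216811 to 128217072 had 5.87 and rank 2644. It was the only region of the windows with a peak in the highest 10% of all 3 lists (7.09%, 3.19% and 2.12%). The summits lay 69 bp apart between CSS and DHT and 58 bp between DHT and FBS.

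Away from this site most GATA2 regions were called in 1 list alone, 3 in CSS, 3 in DHT and 4 in FBS, and 2 were called in more than 1. The single peak inside the gene was in CSS, from 128199812 to 128200002, with a fold enrichment of 4.56 and a width of 191 bp, the narrowest in the CSS list. A second CSS and DHT region at 128151610 to 128152237, past the 3′ end on the side of DNAJB8, was at the highest 33.5% and 49.3% of the lists, with summits 354 bp apart. DHT had a group of 3 peaks about 62 kb upstream, towards RPN1, with summits at 61.97, 62.3 and 63.0 kb, where CSS had none. They were weak (fold enrichment 4.42, 4.97 and 4.97), and the middle one had an FBS partner whose summit was 8 bp away. The CSS-only peak in this stretch, 56.5 kb upstream, was at the highest 68.0% of its list, and the 3 DHT peaks were at 91.2%, 75.2% and 75.2% of theirs. The FBS to CSS ratio of shares was 0.363 (0.0923 to 1.504), against 0.969 for the rest of the long arm.

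SOX9, on the plus strand of chromosome 17 (70.117 to 70.123 Mb), had no CSS or DHT peak and 14 FBS peaks. Against a floor of 3 peaks for a count of 0, the FBS share was at least 1.41-fold higher than the CSS share and at least 1.28-fold higher than the DHT share, bounds that leave out the counting error of the 14 FBS peaks. With that error the exact conditional lower limits were 1.004 against CSS and 0.906 against DHT, so for DHT a ratio of 1 lies within the interval. On the rest of the long arm the FBS to CSS ratio was 0.976. An empty window is not rare in the shorter lists: of 14314 tiles of this width, 18.5% had 0 CSS peaks, 20.8% had 0 DHT peaks and 9.24% had 0 FBS peaks. The nearest CSS and DHT peaks were a pair just past the limit of the window, with summits 109.8 and 109.9 kb downstream of the gene, and the DHT member of this pair was within the highest 9.43% of its list.

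The FBS peaks at SOX9 were weak and included the gene's start. A group of 3 lay inside the gene near its start, from 70117245 to 70117620, from 70117891 to 70118237 and from 70118731 to 70119001, with fold enrichments of 3.12, 3.46 and 2.97. The summit of the first was 0.41 kb into the span. These 3 had lower fold enrichment than 10 of the other 11 FBS peaks of the window. Fold enrichment over the 14 peaks ran from 2.97 to 5.67 with a median of 4.88, and the highest rank of any was 24376, within the highest 19.5% of the list. When each list was limited to its 34120 highest-ranked peaks, 3 of the 14 remained. With a −log10 q of at least 5 there were 5, and with at least 10 there were 0.

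GRHL2, on the plus strand of chromosome 8 (102.504 to 102.682 Mb), had FBS peaks along its whole length. Its 178 kb span held 33 FBS peaks, or 18.5 per 100 kb, and the flanks of 200 kb in all held 23, or 11.5 per 100 kb. The median distance from one FBS summit to the next was 5.64 kb and the greatest was 30.8 kb. CSS and DHT each had 6 peaks in the whole window, of which 2 and 3 were inside the gene. The FBS share was 2.82 times the CSS share (1.22 to 8.02) and 2.55 times the DHT share (1.101 to 7.24), while the DHT share was 1.11 times the CSS share (0.296 to 4.14).

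The FBS list was denser on this chromosome arm as a whole. On the rest of 8q the FBS to CSS ratio was 1.80 (1.69 to 1.91), and with 8q in place of the list as the denominator the ratio for the GRHL2 window was 1.57 (0.679 to 4.46), an interval that includes 1. The part of the arm in the GRHL2 result was not tested beyond this. In equal lists of 34120 top peaks, with 16 FBS, 5 CSS and 6 DHT peaks, the ratio was 3.20 to CSS (1.12 to 11.2) and 2.67 to DHT (0.991 to 8.32). Limiting the lists to a −log10 q of 5 or more left 22, 1 and 5, and the ratio of shares was 7.93 to CSS (1.28 to 327) and 1.57 to DHT (0.580 to 5.31). At a fold enrichment of at least 5 it was 3.87 (0.877 to 35.4) and 1.32 (0.468 to 4.23), so the FBS to DHT interval included 1 under each of these limits.

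At the start of GRHL2 the conditions differed in position. FBS had a peak from 102504570 to 102504990, with its summit 0.783 kb into the span, a fold enrichment of 5.98 and rank 1604, and neither CSS nor DHT had a peak there. About 1 kb further into the gene a region from 102505365 to 102506521 was called in all lists. CSS had 1 peak of 731 bp, the widest CSS peak of the windows, from 102505532 to 102506262 (fold enrichment 7.52, rank 6140). DHT had 2 peaks within the same stretch, with fold enrichments of 6.11 and 6.22. FBS also had 2, at 4.32 and 4.46, and the summit of the stronger one was 371 bp from the CSS summit. The highest-ranked FBS peak in the gene was 82.8 kb into the span, from 102586664 to 102587008, at rank 1379 with a fold enrichment of 8.30 and no CSS or DHT partner.

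Outside the start region, 2 other GRHL2 sites were called in all lists, 53.0 kb upstream and 45.1 kb downstream, the latter on the side of NCALD. At both the DHT peak held a higher rank than the CSS peak: the highest 27.9% against 54.5% upstream, and 22.7% against 79.7% downstream. In the start region it was the CSS peak that ranked higher, at the highest 16.3% against 33.9% for the stronger DHT peak. The downstream one, from 102727003 to 102727226, was the highest-ranked DHT peak at GRHL2, with a fold enrichment of 7.46. Inside the gene, 94.4 kb from its start, DHT and FBS had a peak without a CSS partner, at the highest 31.7% of DHT and 96.9% of FBS. Limited to peaks with a −log10 q of 5 or more, the window had a DHT to CSS ratio of 5.05, with an interval of 0.565 to 239 that rests on 5 peaks against 1.

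ONECUT2, on the plus strand of chromosome 18 (55.102 to 55.159 Mb), was the gene with a CSS peak at its start. The peak ran from 55102629 to 55102880, with its summit 0.712 kb into the span, a fold enrichment of 5.95 and rank 13880, within the highest 36.7% of the CSS list. Neither DHT nor FBS had a peak there. The nearest DHT peak was 6.39 kb upstream of the span and weak, at a fold enrichment of 4.18 and the highest 94.7% of its list, and the nearest FBS summit was 3.44 kb into the gene. Since the spans are given to 1 kb, the place of the CSS peak relative to the first base of the transcript is not resolved. The promoter is printed because, of the genes with a promoter entry, only ONECUT2 had a summit within 1 kb of its start end. It is RefSeq's entry on GRCh38.p14, chr18:57435124-57435373, plus strand, the 250 bases before the annotated start, with matches to the searched words in capitals. The hg19 peak was not placed on it.
ONECUT2 promoter: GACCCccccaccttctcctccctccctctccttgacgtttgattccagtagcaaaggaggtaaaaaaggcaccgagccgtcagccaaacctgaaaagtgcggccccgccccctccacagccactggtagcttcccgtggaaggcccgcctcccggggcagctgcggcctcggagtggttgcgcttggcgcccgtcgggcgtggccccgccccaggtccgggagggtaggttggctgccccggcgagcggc

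The words searched on both strands were GACCC, taken here as a core word for ZBTB7A, and CCGGAA, the core word of ETS factors. The latter was included since VCaP carries the TMPRSS2-ERG fusion. Whether ZBTB7A binds at GACCC in these promoters was not tested. The words can share 2 bases where one runs into the other. ONECUT2 held GACCC once, at the far end of the stretch, and CCGGAA nowhere, and 68.8% of its bases were G or C against a median of 58.0% over the 35116 promoters of the table. GACCC or its reverse complement is in 42.1% of those promoters and CCGGAA in 14.5%. The table held 6 promoters for 4 of the 6 genes, with no entry matched for SOX9 and GRHL2. GACCC was in 4 of these 6 promoters: that of FOXA1, 1 of the 2 for GATA2, 1 of the 2 for KLF5 and that of ONECUT2. CCGGAA was in 0 of the 6. A match or its absence describes letters only.

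Elsewhere in the ONECUT2 window the peaks were mostly FBS peaks without partners. FBS had 5 peaks inside the gene, with fold enrichments between 3.41 and 5.51, and 1 strong peak 80.7 kb upstream, from 55020926 to 55021561, with a fold enrichment of 7.85 and rank 5057. On the other side, about 94.7 kb past the 3′ end on the side of FECH, a region from 55253555 to 55254160 was called in all lists, at the highest 67.0% of CSS, 92.2% of DHT and 41.4% of the FBS list. The FBS to CSS ratio of shares was 1.82 (0.404 to 16.7), against 0.879 for the rest of the long arm. With summits up to 200 kb away it was 0.639 (0.275 to 1.60), on the other side of 1.

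KLF5, on the plus strand of chromosome 13 (73.629 to 73.652 Mb), had 4 sites that CSS and DHT shared and FBS lacked. All 4 were outside the gene, at 68.1 and 41.6 kb upstream and 37.8 and 46.6 kb downstream, and the CSS and DHT summits were 10, 114, 55 and 67 bp apart. The farther upstream site was the strongest, from 73560796 to 73561055 in CSS with a fold enrichment of 10.4 and rank 2601. Its DHT partner had a fold enrichment of 8.23 and rank 5180. The CSS peak held the higher rank at this site and at 37.8 kb downstream (the highest 24.1% against 29.6%). The DHT peak held it at the other 2, by 36.7% against 68.0% upstream and by 15.4% against 76.7% for the site from 73698524 to 73698748.

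FBS had 2 peaks at KLF5, 1 inside the gene and 1 just past its 3′ end at 1.32 kb, both with a fold enrichment of 4.36 and the same −log10 q of 3.52. Neither had a partner. In equal lists of 34120 top peaks CSS and DHT kept 4 peaks each and FBS had 0. The FBS share was 0.151 times the CSS share (0.0137 to 1.06) and 0.137 times the DHT share (0.0124 to 0.953), and on the rest of chromosome 13 the FBS to CSS ratio was 1.02 (0.951 to 1.09). This contrast rests on 2 FBS peaks, and with summits within 50 kb the interval of the FBS to DHT ratio was 0.0152 to 1.59.

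**Figure D3:**
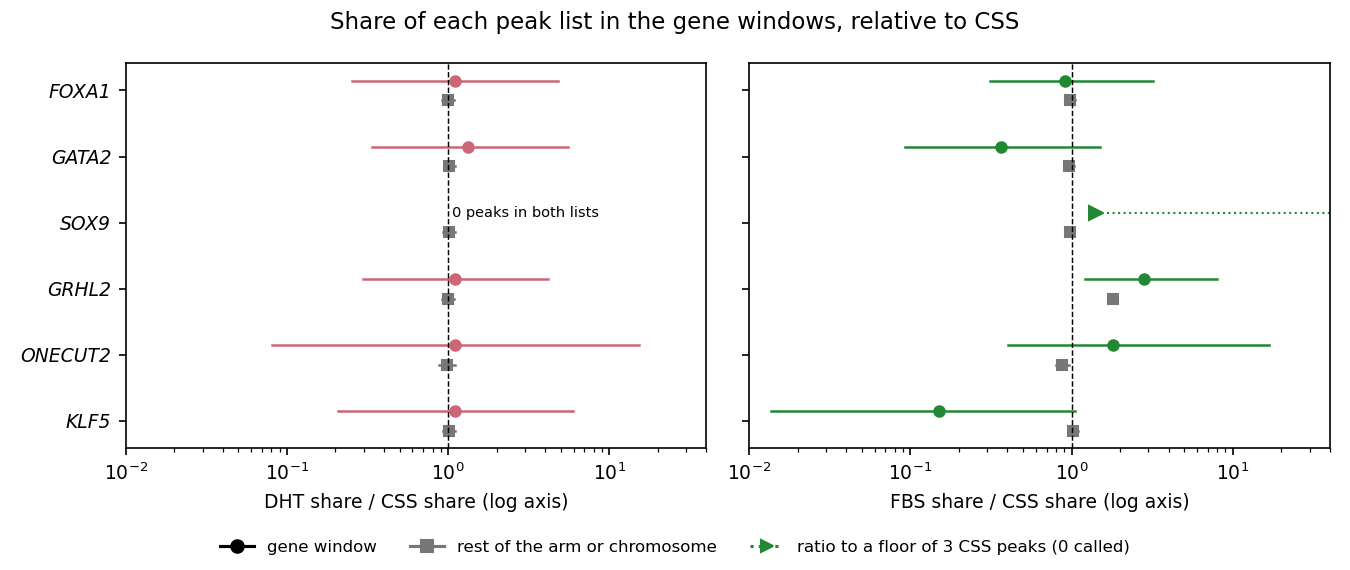
Share of the DHT list (left) and of the FBS list (right) in each gene window divided by the CSS share, on log axes with exact conditional 95% intervals; grey squares give the same ratio for the rest of the chromosome arm, or of the chromosome for FOXA1 and KLF5. The DHT intervals all include 1, and on the right GRHL2 lies at 2.82, the SOX9 arrow at 1.41 is the ratio to a floor of 3 CSS peaks (exact conditional lower limit 1.004), and KLF5 lies at 0.151.

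With DHT against vehicle, the number of peaks hardly differed at any gene: 5 and 5 at FOXA1, 6 and 5 at GATA2, 0 and 0 at SOX9, 6 and 6 at GRHL2, 2 and 2 at ONECUT2, and 4 and 4 at KLF5. The intervals of the ratios are wide, the narrowest being 0.296 to 4.14 at GRHL2, so that a severalfold difference at a single gene was not detectable at these counts. Some ratios turned below 1 under other settings: the pooled one was 0.905 at a −log10 q of 10 or more, that of FOXA1 0.505 at 5 or more, and that of GATA2 0.738 with summits within 50 kb. The 13 regions called in both conditions had summits a median of 69 bp apart (10 to 354). The CSS peak held the higher rank at 8 of them and the DHT peak at 5, and the median gap between the ranks was 17.6 percentage points of the list. These summit and rank values were not computed for the shared regions of the whole genome. Peaks of 1 condition only numbered 9 in each list, and none of them reached a −log10 q of 10. The highest was 6.29 in CSS, at FOXA1, and 6.64 in DHT, at GRHL2. How often such peaks reach 10 over the whole lists was not computed. An FBS partner was present for 1 of the CSS-only and 3 of the DHT-only peaks. Over the genome, 4066 merged regions were in CSS and FBS without DHT, beside 11452 in CSS alone. For DHT without CSS the numbers were 3943 with FBS and 7720 in DHT alone. The 1 and 3 are too few to be read as a difference between the conditions.

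**Figure D4:**
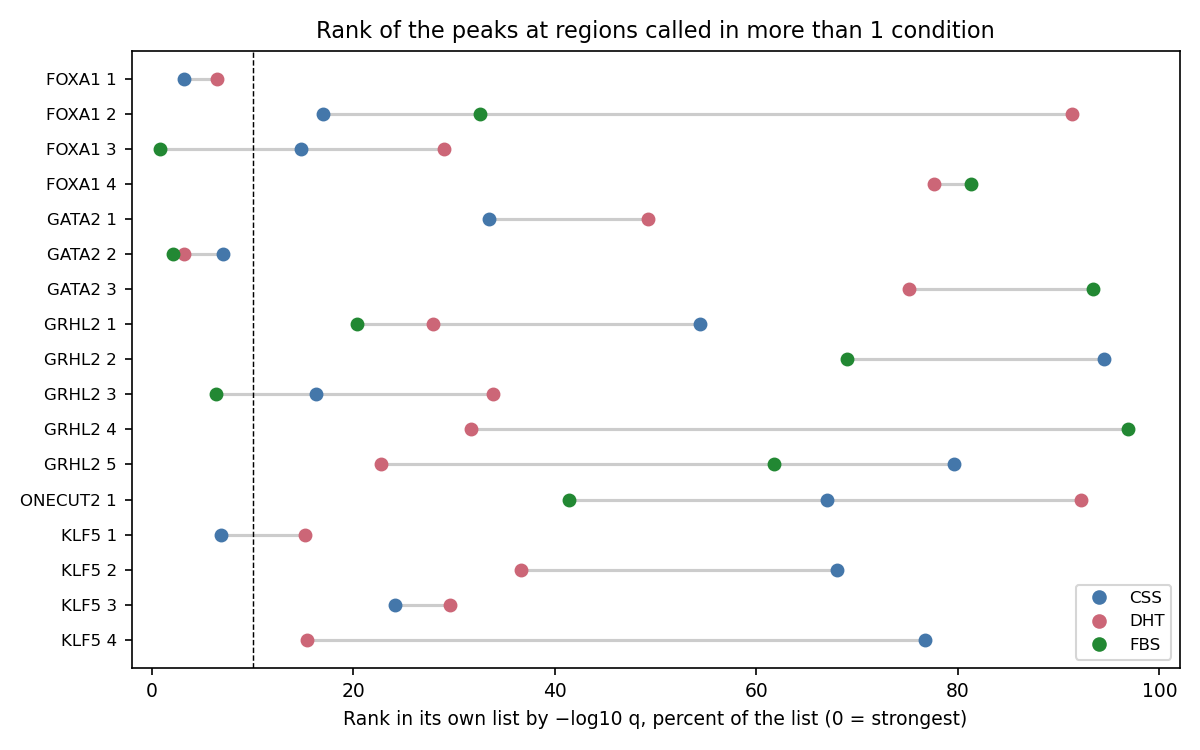
Rank of the peaks at the 17 regions called in more than 1 condition, as a percentage of each peak's own list by −log10 q (0 is the strongest; the dashed line marks 10%), numbered by position along the chromosome within each gene. A missing colour means that the list had no peak there. GATA2 region 2, upstream of the gene, is the one left of the line in all 3 lists.

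Peaks at the start of the genes were counted without a background, since no hg19 starts of other genes were used. A summit within 1 kb of the start end of the span was found for 1 of the 6 genes in CSS (ONECUT2), 0 in DHT, and 2 in FBS (SOX9 and GRHL2). Within 5 kb, CSS had 3 such genes, DHT 2 and FBS 4, through the upstream GATA2 site, the second GRHL2 region and the first FBS peak inside ONECUT2. FOXA1 and KLF5 had none within 5 kb of the start end in any list. Their nearest summits were 8.003 kb (FBS) and 13.1 kb (FBS) from the start end. Distances to annotated transcript starts, which can lie inside a span, were not measured. Counted over all 6 windows, peaks inside a gene span made up 4 of the 22 in CSS, 4 of the 23 in DHT and 43 of the 105 in FBS, and 33 of the 43 were in GRHL2. Its span of 178 kb is the longest, and these counts were not set against span length. The limit of 100 kb divided close neighbours in the FBS list: a SOX9 peak at 99.94 kb (fold enrichment 3.25) and a GRHL2 peak at 99.67 kb (5.76) were inside it, and peaks at 100.84 kb from SOX9 (4.43) and 101.46 kb from GRHL2 (5.23) were outside.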

How the data were processed

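Chromatin was pulled down with an R&D Systems antibody to ZBTB7A, per the labels. The 3 deposited narrowPeak lists were used, 1 per condition. MACS2 (2.0.10.20131216), SAMtools (0.1.18) and BWA (0.7.2-r351) are the tools, and hg19 (GRCh37) the build, that the submitters' processing notes name. Not given in the sources used here were the control, the threshold, and how paired libraries were combined. The deposited fold enrichment is a ratio over background. The deposited −log10 q ranked the peaks (ties take the best rank), summits are the deposited positions, and the deposited score is the whole part of 10 times −log10 q. Without read totals, depth is unknown, and its part in the length of the lists was not tested.

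Gene spans on hg19, given to 1 kb, came from the rule for the members, and no hg19 sequence or annotation was used. Gene order and neighbours are from the RefSeq gene table and promoters from RefSeq, both GRCh38.p14, matched by symbol without conversion. Start ends follow the strand. Shares have Clopper-Pearson intervals, counts Poisson intervals and ratios of shares conditional binomial intervals. Members and lists were chosen with earlier results of these data known. Named in the text were, per window, the highest peak of each list, peaks within 1 kb of the start, the best CSS-only and DHT-only peaks, and the 5 highest window peaks of each list; other peaks named were chosen after their values were seen. Genes with a like pattern and other lineage genes were to be named only with an hg19 annotation, so they are not analysed here. On the deposited lists, the code for overlaps gave the same counts as bedtools 2.31.1 for 12 of 12 combinations of ordered pair and rule. Run separately on simulated positions, it recovered 100% of the planted partners. Scripts ran in Python 3.11.15 with scipy 1.17.1, pandas 2.3.3, numpy 2.4.6 and, for plots, matplotlib 3.10.9.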

Additional observations from a re-analysis of the deposited data

How the results depend on the processing

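No p-value or replicate error stands behind any value, and with counts this small only severalfold differences lie outside the intervals. Under alternative settings 147 values met a rule for no change (counts within 1.5 times, others within the given interval) and 22 moved, among them the DHT to CSS ratio of 5.05 at GRHL2. The rule is lenient where intervals are wide: an FBS to CSS ratio of 7.93 at GRHL2 met it against 2.82 (1.22 to 8.02). Of 98 ratios of shares, 12 fell on the other side of 1, all 12 with intervals that include 1, so the direction of such ratios is not settled. Of 18 alternatives to the 3 ratios whose interval excludes 1 (GRHL2 FBS to CSS and to DHT, KLF5 FBS to DHT), 9 had an interval that includes it. A −log10 q of at least 5 left 10 CSS, 13 DHT and 43 FBS peaks, one of at least 10 left 3, 2 and 7, and a fold enrichment of at least 5 left 11, 14 and 31, as stricter limits must. Summits within 200 kb gave 35 CSS and 36 DHT peaks, and within 50 kb 15 DHT peaks. Leaving out the GRHL2 window left 49 FBS peaks. At a −log10 q of at least 5, 8 of 10 CSS peaks (80.0%) had a DHT partner and 12 of 13 DHT peaks (92.3%) a CSS partner. With an overlap of 50% of both peaks, 26.1% of DHT peaks had an FBS partner. Shares over the whole lists were not computed at these settings, so these values have no background. The cause of the 3 shifts was not tested. Genes with a peak near the start numbered 3 in CSS, 2 in DHT and 4 in FBS within 5 kb, 1 in DHT within 2 kb, and 1 in FBS at a −log10 q of at least 5. Chromosome arms as denominator, leaving out the GRHL2 or KLF5 window, and alternatives to FBS to DHT ratios were chosen after seeing the data. No paired analysis was possible because each condition is represented by 1 list, so no library could be left out either.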

Other observations

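Many window peaks carried fold enrichment and −log10 q values that other peaks of the same list also carried to the last digit, as 97.1% of all FBS peaks did. The commonest pair in FBS, a fold enrichment of 4.80 with a −log10 q of 4.26, occurred at 11304 peaks, of which 7 were in the windows. In CSS the commonest pair, 4.78 with 3.70, occurred at 2880 peaks and at 3 window peaks, including the CSS-only peaks upstream of GATA2 and downstream of GRHL2 and the KLF5 site 41.6 kb upstream. Peaks within 2 bp of the narrowest width of their list numbered 8 in the CSS windows (36.4%, against 26.2% of the list), 5 in the DHT windows (21.7% against 24.8%) and 20 in the FBS windows (19.0% against 24.1%).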
